A study of Saccharomyces cerevisiae BY4741 with 238 samples.

Results

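The genes described here are 9 yeast genes of monovalent cation homeostasis, taken by name from a table of 6717 features measured in 238 libraries: the sodium pumps ENA1, ENA2 and ENA5, the antiporter NHA1, the potassium importer TRK1, the proton pump PMA1, the phosphatase PPZ1 and its inhibitory subunits SIS2 and VHS3. Each library came from 1 culture, grown in 1 well, of Saccharomyces cerevisiae BY4741, a laboratory haploid of mating type a, in rich glucose medium (YPD) with repeated re-inoculation by a robot. The study crossed LiCl, cycloheximide, myriocin and rapamycin in pairs on concentration grids and took RNA from cultures of intermediate growth, with single-drug and drug-free cultures beside them. All 9 genes passed the filter, an average of 10 or more across libraries, that left 5015 features for testing.

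Single-drug cultures with a relative growth of 0.35 to 0.66 are called growth-matched. There were 10 growth-matched LiCl cultures at 218 to 371 mM (9.24 to 15.7 mg/ml), 10 with cycloheximide at 0.0522 to 0.0764 µg/ml, 11 with myriocin at 0.349 to 0.510 µg/ml and 11 with rapamycin at 3.96 to 6.62 ng/ml. Milder single-drug cultures numbered 18 for LiCl at 2.29 to 7.17 mg/ml, 13 for cycloheximide, 9 for myriocin and 19 for rapamycin, and 5 further myriocin cultures were near growth arrest. Mixtures with LiCl numbered 22 with cycloheximide, 26 with myriocin and 18 with rapamycin, and LiCl-free mixtures numbered 20, 19 and 16. Drug-free cultures at a final OD600 of 0.553 to 0.781 numbered 8 and are the controls, while 3 dense drug-free cultures at 1.38 to 1.44 formed a group of their own. The cultures came from 6 experiments, 1 for each drug pair and named here by the initials of its drugs (CL, CM, CR, LM, LR and MR). Within an experiment the cultures fall into a lower and a higher set, by the drug-free growth rate that the labels' absolute and relative growth rates imply, and what the sets stand for is not given in the sources used here. The 8 drug-free control cultures are all in the lower set and all LiCl mixtures in the higher one. Wells were inoculated from an overnight culture per the labels' protocols, with no separate strains or clones, so p-values measure the spread between cultures, which may be technical. In bulk cultures, a change in every cell cannot be told apart from a change in the share of cells that express a gene.

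Yeast cells keep potassium high and sodium and lithium low. Lithium ions are a toxic analog of sodium and leave the cell mainly through the ENA pumps, P-type ATPases that are encoded in a tandem array and kept low in glucose medium without salt, and through Nha1, a sodium-proton antiporter of the plasma membrane. Trk1 is the main potassium importer, and Pma1 is the proton pump whose gradient drives Nha1 and, through the membrane potential, potassium uptake. Ppz1 is a protein phosphatase that restrains Trk1 activity and ENA1 expression. Sis2 (also named Hal3) and Vhs3 bind Ppz1 and inhibit it, and both also take part in coenzyme A synthesis with Cab3. Of the other drugs, cycloheximide blocks translation elongation, myriocin blocks the first step of sphingolipid synthesis, and rapamycin inhibits the growth-promoting kinase complex TORC1.

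The values are 3′-end read counts that were normalized to a common distribution (normalized counts). Because reads come from transcript 3′ ends, the sequence there bears on which copy of a gene a read can be given to. Levels are not compared between genes other than the ENA copies, whose coding lengths are equal. The ENA genes lie side by side on the minus strand of chromosome IV in the R64 build: ENA5 at chrIV:527422-530697, ENA2 at chrIV:531307-534582 and ENA1 at chrIV:535192-538467, each with 3276 coding bases and no intron. The last 120 coding bases of each copy, from the RefSeq R64 genome, are shown because they separate ENA5 from the other copies. Capitals mark the 30 bases at which ENA5 differs from ENA1 and ENA2.

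ENA1: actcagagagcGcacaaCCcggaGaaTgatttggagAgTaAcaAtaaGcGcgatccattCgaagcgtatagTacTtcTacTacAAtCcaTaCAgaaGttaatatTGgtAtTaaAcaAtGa

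ENA2: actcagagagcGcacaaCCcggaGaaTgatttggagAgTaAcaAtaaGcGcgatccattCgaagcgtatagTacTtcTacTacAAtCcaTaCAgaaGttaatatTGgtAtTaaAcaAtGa

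ENA5: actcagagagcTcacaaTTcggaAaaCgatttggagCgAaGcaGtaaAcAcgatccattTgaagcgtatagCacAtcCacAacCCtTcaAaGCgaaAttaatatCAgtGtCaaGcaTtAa

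ENA1 and ENA2 differed at 43 coding bases, 41 of them within the first 270, and were identical over the last 321. ENA2 and ENA5 differed at 34 bases, 30 of them within the last 120. The copies thus divide differently at their ends: the ENA2 sequence matches ENA5 at its start and ENA1 at its 3′ end. Upstream of the start codon, ENA2 and ENA5 were identical over 600 bases. Of the 50-base windows within the last 500 coding bases, 11.1% were unique in the genome for ENA1, 0% for ENA2 and 46.3% for ENA5, against 97.3% to 100% for each of the other genes. The windows of 120, 270 and 600 bases were set after the positions of the differences were known.

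The ENA1 and ENA2 values were nearly equal. The ENA2 value was within 10% of the ENA1 value in 216 of 238 libraries, and the median ratio of ENA2 to ENA1 was 1.00. Their log2 values had a Pearson correlation of 0.983 over the libraries, which share depth and normalization. The median ratio of ENA5 to ENA1 was 0.553, with a range of 0.202 to 2.94 and a correlation of 0.600. These ratios describe the table's values, since reads may be assigned unequally to the copies, and untranslated 3′ ends were not examined. ENA1 and ENA2 are therefore reported as 1 uncertain pair of readings, with ENA1 given in the text. ENA5 was also the most thinly read, with a median of about 20 reads a library, against 36 for ENA1.

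**Figure D1:**
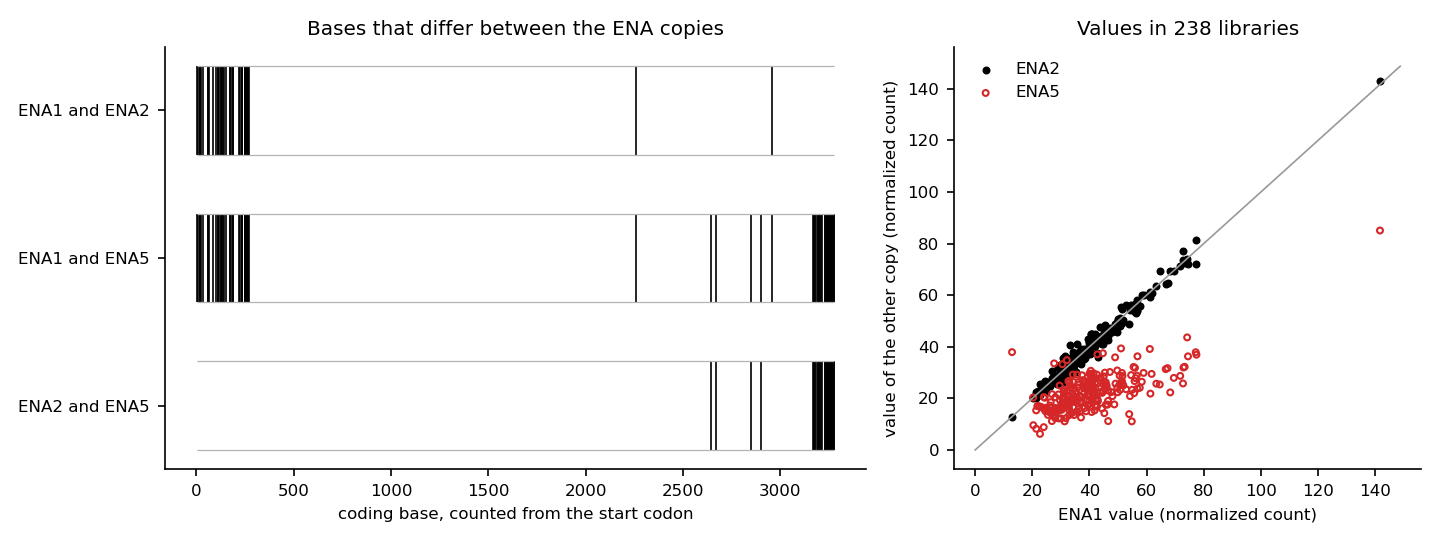
Left: each vertical line is a coding base (horizontal axis, base counted from the start codon) that differs between 2 ENA copies; ENA1 and ENA2 have 41 of 43 differences in the first 270 bases, and ENA2 and ENA5 have 30 of 34 in the last 120. Right: normalized counts of ENA2 (filled) and ENA5 (open) against ENA1 in 238 libraries, with the line of equal values; ENA2 lies along the line and ENA5 mostly below it.

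Short upstream stretches are shown where letters known as regulatory motifs of salt-responsive genes occur (capitals, both strands searched in the 800 bases before each start codon). The ENA1 stretch at chrIV:538967-539012 holds 1 match to a core motif of the repressor Mig1 and 1 to TGACGT, the core of the cyclic AMP response element bound by Sko1. The ENA2 stretch at chrIV:534762-534787, identical in ENA5, holds GAGGCTG, a core of the calcineurin-dependent response element bound by Crz1. The VHS3 stretch at chrXV:430137-430282 holds TGACGT on each strand. All 3 are written along the minus strand, on which these genes lie.

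ENA1 upstream: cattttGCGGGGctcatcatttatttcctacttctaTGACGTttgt

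ENA2 upstream: tgtaattgtGAGGCTGatgttttctt

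VHS3 upstream: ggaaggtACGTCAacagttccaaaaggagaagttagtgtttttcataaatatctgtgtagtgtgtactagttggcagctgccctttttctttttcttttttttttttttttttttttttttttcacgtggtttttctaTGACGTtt

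TGACGT occurred upstream of 3 of the 9 genes (ENA1, TRK1 and VHS3) and of 21.2% of 5997 promoters, GAGGCTG upstream of 2 (ENA2 and ENA5) and of 5.6%, and the Mig1 cores (CCCCGC or CCCCAC or CCCCGG or CCCCAG) upstream of 4 and of 35.8%. GCCAAG, the core bound by the pH-response repressor Rim101, occurred upstream of 0 of the 9 and of 30.2%. These matches describe letters only.

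VHS3, at chrXV:427833-429857 on the minus strand, was the 1 of the 9 genes called higher in LiCl cultures than under each of the 3 other drugs. Its normalized counts were 68.02 to 181.8 in growth-matched LiCl cultures with a median of 118, 51.1 to 92.6 with a median of 70.5 under cycloheximide, 57.5 to 99.5 with a median of 77.6 under myriocin, 40.5 to 95.4 with a median of 73.9 under rapamycin, and 66.5 to 110 with a median of 89.4 in drug-free cultures. The LiCl cultures reached above every other group, and 7 of 10 lay above the highest drug-free culture, while the lowest LiCl cultures overlapped all groups. VHS3 was called higher in LiCl cultures than in cycloheximide cultures (log2 difference 0.80 ± 0.17 SE, adjusted p = 0.000134 by limma), myriocin cultures (0.90 ± 0.15, 6.11e-07) and rapamycin cultures (0.79 ± 0.14, 1.34e-06). A call here and throughout needs a Benjamini-Hochberg adjusted p under 0.05 over all 5015 genes and a fitted change of at least 1.5-fold, which is 0.58 on the log2(value + 1) scale. VHS3 averaged 125 ± 37.2 in LiCl cultures and 87.7 ± 14.6 in drug-free cultures (SD, 10 and 8 cultures). Against drug-free cultures the VHS3 difference was 0.58 ± 0.15 (adjusted p = 0.00226 by limma), just under the fold minimum.

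The size of the VHS3 difference varied by experiment. In LM it read 181.8 and 153.8 in LiCl cultures at 15.7 mg/ml, against 90.2 and 91.2 in drug-free cultures. In LR it read 97.01 to 162 in 6 LiCl cultures, against 69.4 in the drug-free culture. In CL it read 86.04 and 68.02 in LiCl cultures at 11.9 mg/ml, against 66.5 in the drug-free culture. The dense drug-free culture of CL, not among the controls, read 75.2, above the LiCl culture at 68.02 and below that at 86.04. The LiCl cultures were above the drug-free control cultures of their own experiment in all 3, by a small margin in CL. Whether the experiments differ in this was not tested.

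One other row of the table shares the VHS3 signal. YOR053W, which has no entry in the RefSeq annotation and whose systematic name places it beside VHS3 (YOR054C) on the opposite strand, had 0.923 of the VHS3 value as a median, with a range of 0.615 to 1.17, and a correlation of 0.967 over 238 libraries. Its LiCl differences were likewise 0.67 against cycloheximide, 0.84 against myriocin and 0.76 against rapamycin. The strand setting of the counting is not given in the sources used here, so reads of these rows cannot be told apart, and VHS3 is an uncertain reading to that extent.

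**Figure D2:**
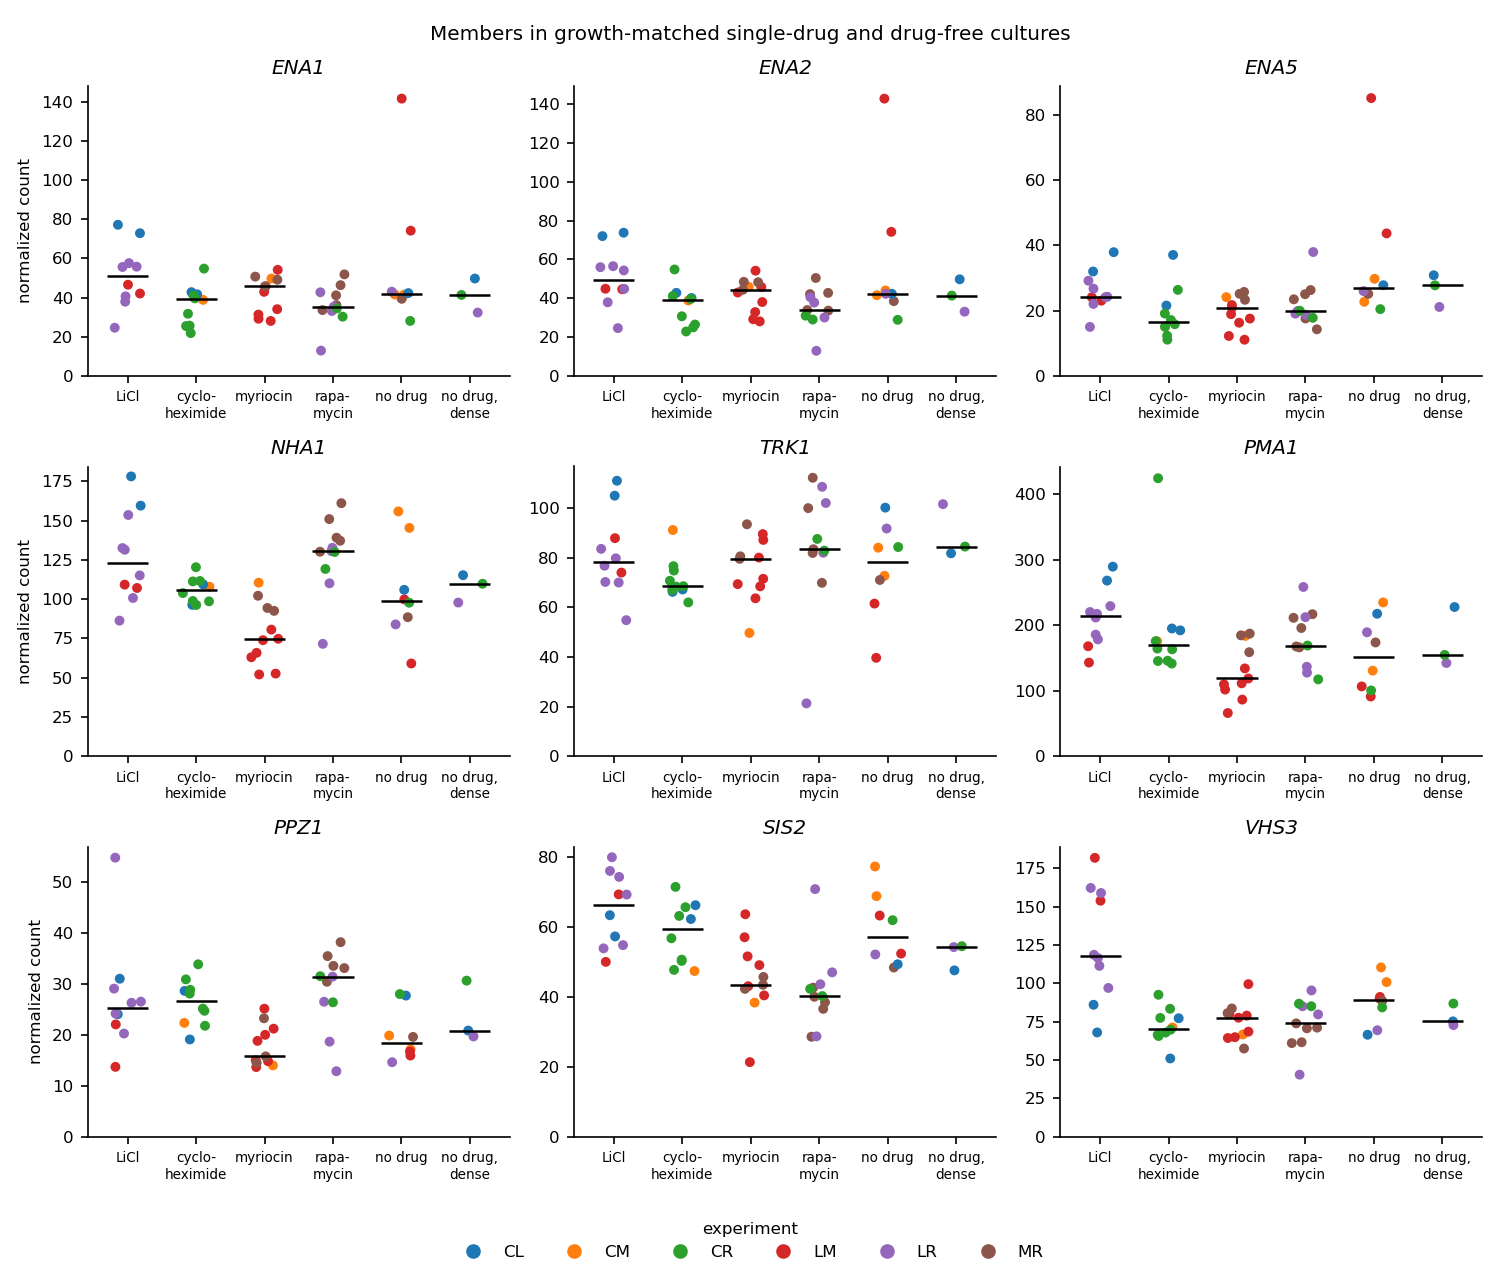
Normalized counts (vertical axis, linear from 0) of the 9 genes in growth-matched single-drug cultures, drug-free cultures and dense drug-free cultures; each point is 1 well, coloured by experiment, and bars are medians. VHS3 has 7 of 10 LiCl cultures above the highest drug-free culture, and the ENA genes have 2 high drug-free cultures, both from LM.

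SIS2, the paralog of VHS3, lies at chrXI:576435-578123 on the minus strand. It read 50.1 to 79.99 with a median of 66.4 in LiCl cultures, 47.4 to 71.5 with a median of 59.6 under cycloheximide, 21.4 to 63.7 with a median of 43.5 under myriocin, 28.6 to 70.9 with a median of 40.3 under rapamycin, and 48.4 to 77.3 with a median of 57.2 in drug-free cultures. The LiCl and drug-free cultures overlapped almost fully, whereas 10 of 11 rapamycin cultures lay below the lowest drug-free culture. SIS2 was called higher in LiCl than in rapamycin cultures (0.61 ± 0.14, adjusted p = 0.000443 by limma), a call lost with a pseudocount of 10 (0.51). Against drug-free cultures the difference was 0.16 ± 0.16 (adjusted p = 0.521) in LiCl cultures and -0.45 ± 0.15 (adjusted p = 0.0293) in rapamycin cultures, the second under the fold minimum.

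PPZ1, at chrXIII:239458-241536 on the minus strand, is the phosphatase that these subunits inhibit. It read 13.7 to 54.9 with a median of 25.3 in LiCl cultures, against 14.7 to 28.1 with a median of 18.4 in drug-free cultures. PPZ1 read 19.1 to 33.9 with a median of 26.7 under cycloheximide and 12.9 to 38.3 with a median of 31.5 under rapamycin. Both medians were above that of LiCl cultures. Under myriocin it read 13.7 to 25.2 with a median of 15.8. The highest LiCl value came from the shallowest library of the series, an LR well with about 64843 reads. The PPZ1 difference between LiCl and drug-free cultures was 0.39 ± 0.17 (adjusted p = 0.0864 by limma), and 0.21 (adjusted p = 0.363) without the 8 libraries of under 142210 reads. PPZ1 rested on a median of 22 reads a library.

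Among the transporters, ENA1 did not pass the test between LiCl and drug-free cultures, and the drug-free cultures were unlike each other. ENA1 read 24.6 to 77.2 with a median of 51.1 in 10 LiCl cultures, 21.9 to 54.8 with a median of 39.2 under cycloheximide, 28.1 to 54.2 with a median of 45.7 under myriocin, 12.9 to 51.9 with a median of 35.3 under rapamycin, and 28.1 to 142 with a median of 41.9 in drug-free cultures. The 2 drug-free cultures of LM read 74.2 and 142, and the other 6 read 28.1 to 42.996, and the LiCl cultures overlapped the drug-free cultures with or without those of LM. The ENA1 difference between LiCl and drug-free cultures was 0.15 ± 0.20 (adjusted p = 0.636 by limma), and 0.57 (adjusted p = 0.0424) without both LM drug-free cultures, a fit chosen after seeing the data, still under the fold minimum. The direction differed between experiments: ENA1 read 77.2 and 72.9 in CL LiCl cultures, against 42.3 in the CL drug-free culture. In LM it read 46.6 and 42.1 in LiCl cultures, against 74.2 and 142 in drug-free cultures. In LR it read 24.6 to 57.6 in 6 LiCl cultures, against 42.996 in the drug-free culture, an overlap. LiCl cultures were thus above the drug-free culture in CL and below both drug-free cultures in LM, and that difference between experiments was not tested. Against the other drugs, ENA1 in LiCl cultures passed the p threshold for myriocin (0.52 ± 0.20, adjusted p = 0.0398 by limma) and rapamycin (0.54 ± 0.18, 0.0159). Both were under the fold minimum, and cycloheximide gave 0.43 ± 0.22 (adjusted p = 0.182). ENA1 was called against myriocin with final OD600 in place of set (0.60) and against rapamycin with a growth window of 0.45 to 0.60 (0.61).

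ENA5 did not pass the test in LiCl cultures either, at 15.0 to 37.9 with a median of 24.2 against 20.4 to 85.1 with a median of 26.9 in drug-free cultures (-0.35 ± 0.21, adjusted p = 0.239 by limma). In myriocin cultures it read 11.1 to 25.7 with a median of 20.9, and 5 of 11 lay below the lowest drug-free culture. ENA5 was called lower there (-0.74 ± 0.20, adjusted p = 0.00402), the 1 of 9 genes called between myriocin and drug-free cultures, beside 9.25% of all genes. Without both LM drug-free cultures, at 43.6 and 85.1, the ENA5 difference was -0.15 (adjusted p = 0.732) and the call was lost, as it was with a pseudocount of 10 (-0.57) and a growth window of 0.45 to 0.60 (-0.61, adjusted p = 0.0522).

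NHA1, at chrXII:418437-421394 on the plus strand, read 86.4 to 178.2 with a median of 123 in LiCl cultures, 96.3 to 120 with a median of 106 under cycloheximide, 52.1 to 111 with a median of 74.8 under myriocin, 71.6 to 161 with a median of 131 under rapamycin, and 59.1 to 156 with a median of 98.8 in drug-free cultures. By median, rapamycin and LiCl cultures were highest and myriocin cultures lowest, and every group overlapped the drug-free cultures. NHA1 was called higher in LiCl than in myriocin cultures (0.73 ± 0.13, adjusted p = 8.14e-07 by limma). Against drug-free cultures the difference was 0.52 ± 0.12 (adjusted p = 0.000862) in LiCl cultures and 0.37 ± 0.12 (adjusted p = 0.0203) in rapamycin cultures, both under the fold minimum.

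PMA1, at chrVII:479910-482666 on the minus strand, read 143 to 289 with a median of 214 in LiCl cultures, against 91.2 to 235 with a median of 152 in drug-free cultures. Only 2 of 10 LiCl cultures, both of CL, lay above the highest drug-free culture. The PMA1 difference was 0.54 ± 0.14 (adjusted p = 0.00264 by limma), under the fold minimum, and it passed that minimum at 0.59 (adjusted p = 0.000403) without the shallow libraries. TRK1, at chrX:173599-177306 on the minus strand, read 54.9 to 111 with a median of 78.3 in LiCl cultures, against 39.7 to 100 with a median of 78.4 in drug-free cultures, and the groups overlapped (0.16 ± 0.14, adjusted p = 0.468 by limma).

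In counts, 0 of the 9 genes were called between growth-matched LiCl and drug-free cultures, where 10.3% of all genes were, although VHS3, PMA1 and NHA1 passed the p threshold. At an unadjusted p under 0.05, 4 of the 9 (PPZ1 added) and 1623 of all 5015 genes differed. The median log2 difference of the 9 was 0.16, beside -0.01 for all genes. Against the other drugs, 1 of 9 was called in LiCl against cycloheximide (7.52% of all genes), 2 against myriocin (14.5%) and 2 against rapamycin (12.1%), all higher in LiCl cultures. These comparisons share the LiCl cultures. Cycloheximide against drug-free cultures called 0 of 9 (2.81% of all genes; 2 of 9 and 910 of all at an unadjusted p under 0.05), and rapamycin against drug-free cultures called 0 of 9 (6.70%; 6 of 9 and 1375 of all).

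**Figure D3:**
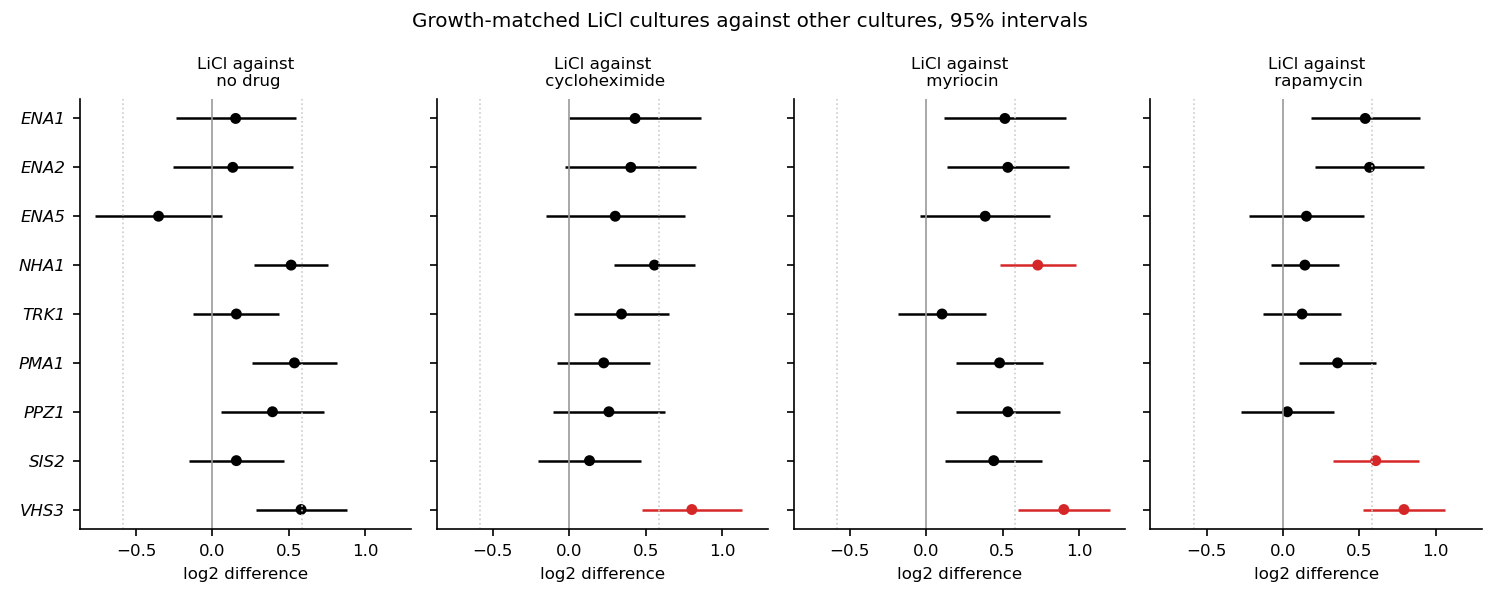
Log2 differences (horizontal axis) of the 9 genes between growth-matched LiCl cultures and each other group, with 95% intervals from limma; red marks calls and dotted lines the 1.5-fold minimum. VHS3 is called against all 3 other drugs, NHA1 against myriocin and SIS2 against rapamycin.

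The LiCl gradient of the LR experiment shows the dose order, from drug-free cultures to 13.5 mg/ml, with 13 cultures in each set. VHS3 rose along it: in the lower set it read 69.4 without drug, 77.1 at 2.29 mg/ml, 113 at 7.17 mg/ml, 119 at 10.5 mg/ml and 159 at 13.5 mg/ml. In the higher set it read 72.8 without drug, 83.5 at 2.29 mg/ml, 118 at 7.17 mg/ml, 117 at 10.5 mg/ml and 162 at 13.5 mg/ml. The sets read alike at the top dose, and the 2 cultures there are the highest of the gradient. The culture of the higher set there had only about 143673 reads, just above the limit of 142210 for shallow libraries. Fitted against growth inhibition, VHS3 rose by 0.84 ± 0.11 on the log2 scale between no inhibition and a relative growth of 0.5 (adjusted p = 2.57e-06 by limma), with 0.77 in the lower set alone and 0.91 in the higher. YOR053W rose by 0.82 ± 0.12.

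VHS3 was the 1 of 9 genes called along the LiCl gradient, where 6.74% of all genes were, and the median slope was 0.36 for the 9 and -0.04 for all genes. The NHA1 slope was 0.44 ± 0.15 (adjusted p = 0.0447 by limma), under the fold minimum. In the lower set ENA1 read 42.996 without drug, 37.5 at 2.29 mg/ml, 74.5 at 7.17 mg/ml and 55.6 at 13.5 mg/ml. In the higher set it read 32.3 without drug, 33.04 at 2.29 mg/ml, 56.8 at 7.17 mg/ml and 40.6 at 13.5 mg/ml. ENA1 was thus highest at a middle dose in both sets, at 7.17 mg/ml in the lower and, with 58.9, at 6.31 mg/ml in the higher, and its straight-line slope was 0.30 ± 0.23 (adjusted p = 0.443). The ENA1 slope was -0.03 (adjusted p = 0.979) in the higher set alone and 0.61 (adjusted p = 0.0521) in the lower. The difference of slopes between the sets was called for 0 of 9 genes (0.0997% of all genes; 0 of 9 and 542 of all at an unadjusted p under 0.05), and that of ENA1, higher minus lower set, was -0.64 ± 0.46 (adjusted p = 0.627 by limma). Final OD600 was 1.38 without drug and 0.720 at 13.5 mg/ml in the higher set, against 0.632 and 0.760 in the lower. With log2 OD600 as a further term, the LiCl slope was 0.80 for VHS3 (adjusted p = 4.29e-05 by limma), 0.32 for ENA1 (adjusted p = 0.555) and 0.25 for NHA1 (adjusted p = 0.385), so NHA1 no longer passed the p threshold.

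PMA1 was also highest at middle doses. In the lower set it read 189.1 without drug, 192.2 at 2.29 mg/ml, 272 at 6.31 mg/ml and 185.4 at 13.5 mg/ml. In the higher set it read 142 without drug, 197.6 at 2.29 mg/ml, 225 at 6.31 mg/ml and 220 at 13.5 mg/ml. Its highest values were 272 at 6.31 mg/ml in the lower set and 250 at 7.17 mg/ml in the higher. A curvature term, chosen after seeing the data, passed for PMA1 (adjusted p = 0.0136 by limma, with 1.04% of all genes past 0.05), while that of ENA1 had an adjusted p of 0.372. The cultures of the higher set at 4.90 and 9.24 mg/ml were shallow libraries of about 78611 and 64843 reads, in which ENA1 read 20.3 and 24.6.

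**Figure D4:**
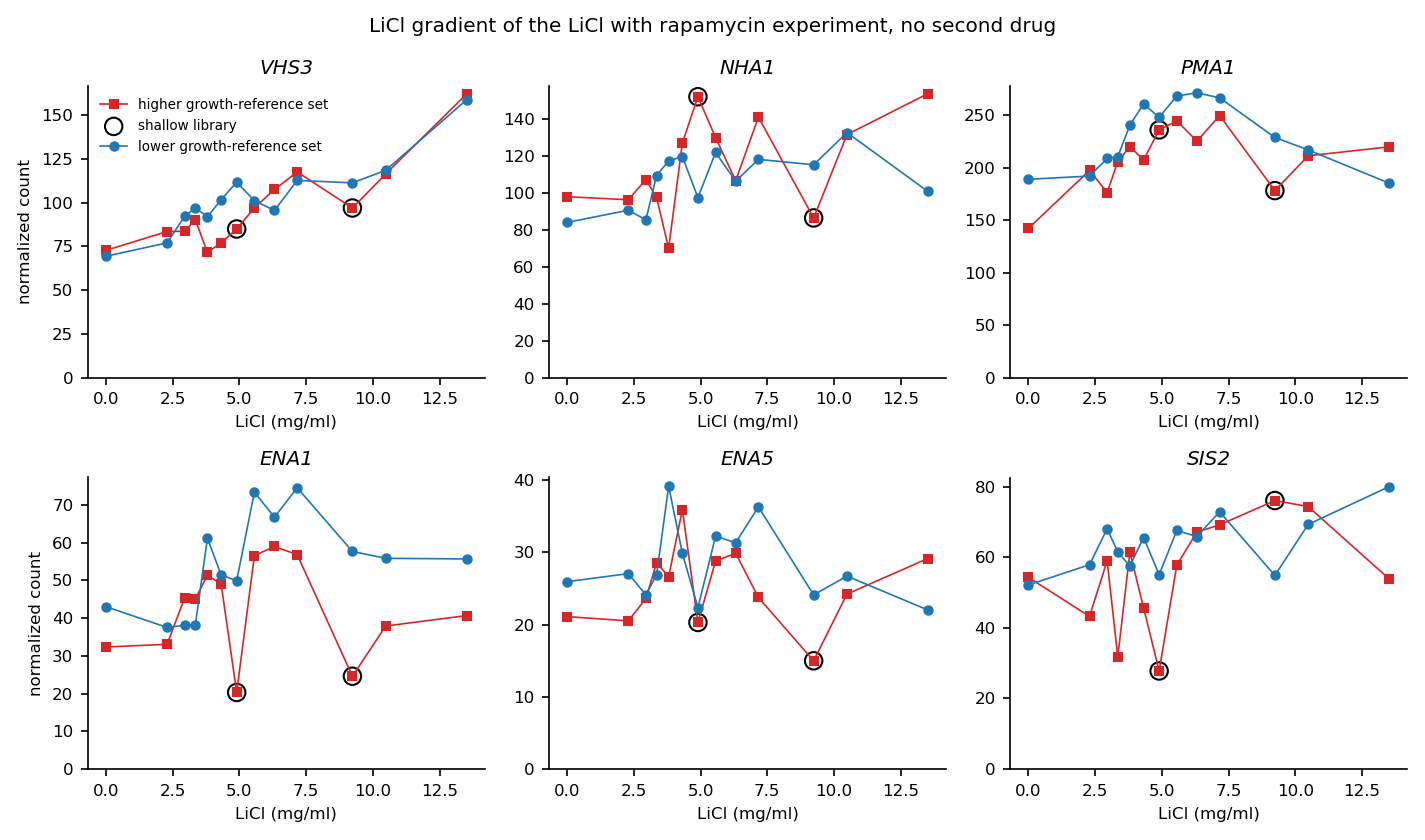
Normalized counts (vertical axis, linear from 0) of 6 genes against LiCl dose (mg/ml) in cultures of LR without rapamycin, in the higher (squares) and lower (circles) set; rings mark shallow libraries. VHS3 is highest at 13.5 mg/ml in both sets, while ENA1 and PMA1 are highest at middle doses.

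The same fit was made along the gradients of the other drugs. Along cycloheximide 1 of 9 was called (5.32% of all genes): ENA5 fell by 0.76 on the log2 scale (SE 0.19, adjusted p = 0.00566 by limma), a call lost in the lower set alone (-0.57, adjusted p = 0.249), with final OD600 as a term (-0.55, adjusted p = 0.134) and with a pseudocount of 10 (-0.53). Along myriocin 0 of 9 were called (16.01% of all genes, with 3 of 9 and 2582 of all at an unadjusted p under 0.05), and TRK1 had the largest slope past the p threshold among the 9, at 0.54 ± 0.10 (adjusted p = 0.000119). The myriocin gradient includes the 5 near-arrest cultures, at a relative growth of 0.0358 to 0.331. TRK1 read 63.5 to 138 with a median of 106 in them. In growth-matched myriocin cultures TRK1 read 49.7 to 93.5 with a median of 79.6. Growth-matched myriocin against drug-free cultures gave 0.05 ± 0.14 for TRK1 (adjusted p = 0.826 by limma). Along rapamycin 0 of 9 were called (6.04%; 6 of 9 and 1902 of all at an unadjusted p under 0.05), with NHA1 at 0.57 ± 0.10 (adjusted p = 8.06e-05), PPZ1 at 0.48 ± 0.11 (adjusted p = 0.00102) and SIS2 at -0.33 ± 0.10 (adjusted p = 0.0164). The VHS3 slope was -0.32 ± 0.09 along myriocin (adjusted p = 0.00337 by limma), opposite in sign to its LiCl slope.

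In mixtures, the LiCl dose share gives the part of the joint dose that is LiCl: each dose is divided by the median growth-matched dose of that drug alone in the same experiment, and the LiCl part is taken over the sum. It ran from 0.116 to 0.839 with cycloheximide, from 0.130 to 0.758 with myriocin and from 0.170 to 0.890 with rapamycin. All these cultures grew at 0.42 to 0.59 of the drug-free rate. A slope below is the log2 change over a whole unit of dose share. The partner drug's share falls as the LiCl share rises, so more LiCl and less of the partner cannot be told apart.

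With cycloheximide, the ENA genes and PMA1 rose with the LiCl share. ENA1 read 55.5 to 77.5 with a median of 61.8 in the 7 cultures with a share over 2/3, 36.1 to 50.6 with a median of 44.7 in the middle 7, and 24.8 to 41.95 with a median of 33.98 in the 8 cultures with a share under 1/3. The highest and lowest of these ranges did not overlap, but how many of all genes separate like this was not counted. The ENA1 slope was 1.71 ± 0.15 (adjusted p = 3.63e-11 by limma), the ENA5 slope 1.15 ± 0.25 (adjusted p = 0.000501) and the PMA1 slope 0.86 ± 0.10 (adjusted p = 1.37e-08). VHS3 rose by 0.59 ± 0.15 (adjusted p = 0.00285), reading 55.9 to 87.1 with a median of 73.8 at high shares against 51.1 to 74.1 with a median of 55.8 at low ones, an overlap. This VHS3 call was lost with a pseudocount of 10 (0.52), with relative growth as a further term (0.57) and per 10 mg/ml of LiCl (0.37), each under the fold minimum. The YOR053W slope there was 0.55 ± 0.17, under that minimum too. With ENA2, 5 of 9 were called, all higher, where 17.2% of all genes were, or 4 of 8 with ENA1 and ENA2 as 1 reading. NHA1 (0.53 ± 0.12) and TRK1 (0.42 ± 0.14) passed the p threshold alone.

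With myriocin, VHS3 alone of the 9 was called, where 16.5% of all genes were. It read 155 to 212 with a median of 182.4 in the 4 cultures with a share over 2/3, 130 to 198.4 with a median of 143 in the middle 8, and 76.8 to 142 with a median of 99.5 in the 14 cultures under 1/3. The high and low groups did not overlap, though the number of all genes that separate like this was not counted. The VHS3 slope was 1.62 ± 0.16 (adjusted p = 3.74e-09 by limma), and that of YOR053W was 1.56 ± 0.17. The ENA1 slope there was 0.54 ± 0.31 (adjusted p = 0.247), with 32.98 to 68.3 at shares over 2/3 against 20.3 to 56.2 at shares under 1/3, an overlap. Final OD600 rose with the LiCl share in these mixtures (r = 0.68 over 26 cultures). With log2 OD600 as a further term VHS3 was still called, where 11% of all genes were.

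With rapamycin, 6 of 9 were called, all higher, where 18.7% of all genes were, or 5 of 8 with ENA1 and ENA2 as 1 reading: VHS3 at 1.42 ± 0.27, PMA1 at 1.16 ± 0.19, SIS2 at 1.13 ± 0.24, ENA2 at 1.01 ± 0.26, ENA5 at 0.97 ± 0.31 and ENA1 at 0.74 ± 0.26. VHS3 read 113 to 228 with a median of 135 in the 7 cultures with a share over 2/3. It read 69.4 to 97.01 with a median of 83.3 in the middle 7. The 4 cultures under 1/3 read 82.2 to 95.1 with a median of 83.9, so middle and low shares overlapped for VHS3. SIS2 read 53.5 to 77.2 with a median of 62.2 in the 7 cultures with a share over 2/3, against 36.8 to 42.2 with a median of 41.1 in the 4 cultures under 1/3. PMA1 read 171 to 300 with a median of 208 at high shares against 124 to 160 with a median of 130 at low ones. VHS3, SIS2 and PMA1 did not overlap between high and low shares, and neither did ENA2 and ENA5. ENA1 did overlap, at 33.2 to 58.3 against 27.1 to 36.6. How many of all genes separate in this way was not counted, so the separation is only a description. Final OD600 rose with the LiCl share in these cultures (r = 0.67 over 18 cultures, which share 1 experiment and 1 set), and with log2 OD600 as a further term PMA1 alone of the 9 was called (1.12, adjusted p = 0.00773 by limma). The slopes in that fit were 1.12 for VHS3 (adjusted p = 0.0554 by limma), 1.046 for SIS2 (0.0528), 1.12 for ENA2 (0.0525), 0.90 for ENA1 (0.130) and 0.85 for ENA5 (0.257), all still positive.

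The slopes were also compared between pairs in 1 fit, chosen after seeing the data. The slope with cycloheximide was above that with myriocin by 1.18 for ENA1 (adjusted p = 0.0138 by limma), 1.16 for ENA2 (adjusted p = 0.0119) and 0.75 for TRK1 (adjusted p = 0.0326). The same difference was -1.03 for VHS3 (adjusted p = 0.00346), so 4 of 9 were called beside 12.6% of all genes, or 3 of 8 with ENA1 and ENA2 as 1 reading. The SIS2 slope with cycloheximide differed from that with rapamycin by -1.08 (adjusted p = 0.0386), 1 of 9 beside 10.6%. The PMA1 slope with rapamycin was above that with myriocin by 0.93 (adjusted p = 0.0185), 1 of 9 beside 16.1%. The LiCl doses behind a given share differ between pairs, since the growth-matched LiCl dose was 15.7 mg/ml in LM and 11.9 mg/ml in CL.

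**Figure D5:**
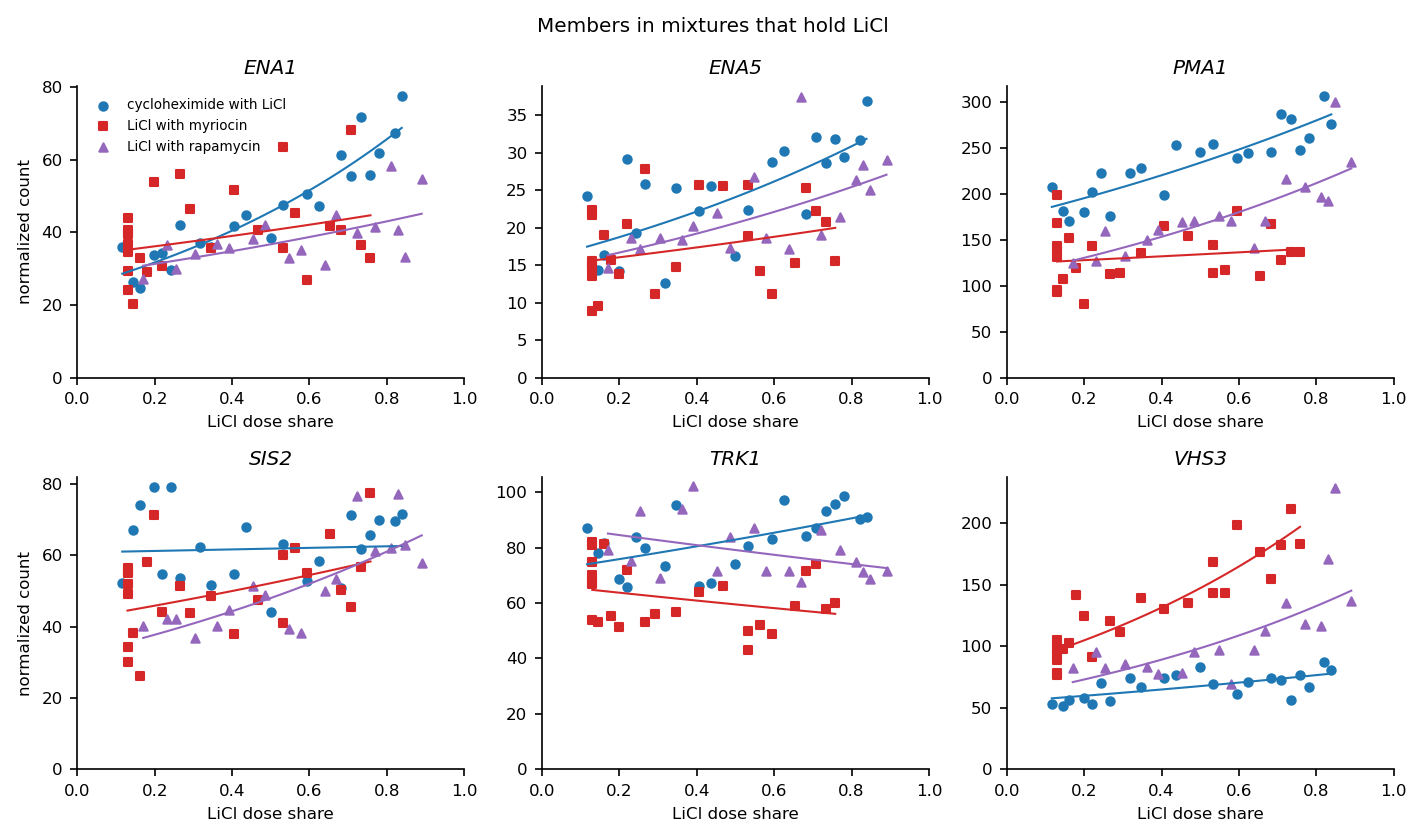
Normalized counts (vertical axis, linear from 0) of 6 genes against the LiCl dose share in mixtures with cycloheximide (circles), myriocin (squares) or rapamycin (triangles); each point is 1 well and lines are log2-linear fits. ENA1 is highest at high shares with cycloheximide (55.5 to 77.5 over 2/3), and VHS3 at high shares with myriocin (155 to 212).

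As whole groups, LiCl mixtures against LiCl-free mixtures gave 0 of 9 calls (3.69% of all genes; 2 of 9 and 1615 of all at an unadjusted p under 0.05), with VHS3 at 0.51 ± 0.11 (adjusted p = 0.000134 by limma) and NHA1 at 0.41 ± 0.09 (adjusted p = 0.000214), both under the fold minimum. The compared mixtures share no experiment, and with no term for experiment or set these were 0.35 for VHS3 (adjusted p = 3.55e-09 by limma) and 0.04 for NHA1 (adjusted p = 0.474). A mixture set against the mean of its single drugs called 0 of 9 in each of 6 pairs, where all genes gave 0.439% for cycloheximide with LiCl, 2.47% for LiCl with myriocin, 1.34% for LiCl with rapamycin, 2.29% for cycloheximide with myriocin, 1.83% for cycloheximide with rapamycin and 0.0399% for myriocin with rapamycin. At an unadjusted p under 0.05, these fits gave 3 of 9 for LiCl with myriocin (1039 of all 5015 genes), 1 for cycloheximide with myriocin (955) and 1 for cycloheximide with rapamycin (1216). They gave 0 of 9 for cycloheximide with LiCl (543 of all genes), LiCl with rapamycin (1048) and myriocin with rapamycin (399). Dense against other drug-free cultures also called 0 of 9 (0.259%; 0 of 9 and 384 of all at an unadjusted p under 0.05).

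The wider cation network was read from 86 other genes in 9 lists, of which 78 were tested. Across growth-matched LiCl and drug-free cultures 7 of 78 were called (8.97%, beside 10.3% of all genes), 4 higher and 3 lower. TRK2, the low-affinity potassium importer, was higher at 31.7 ± 4.91 against 19.2 ± 2.92 (SD, 10 and 8 cultures; log2 difference 0.66, adjusted p = 0.00498 by limma). ISC1, a sphingolipid phospholipase, was higher at 45.6 ± 8.84 against 35.4 ± 9.98 (0.61, adjusted p = 0.0232). AST1, which helps Pma1 reach the plasma membrane, was higher at 38.1 ± 26.2 against 21.5 ± 8.08 (0.68, adjusted p = 0.0295). INM1, a lithium-sensitive inositol monophosphatase, was higher at 34.2 ± 19.95 against 18.4 ± 15.5 (0.89, adjusted p = 0.00705). Along the LiCl gradient the slopes of AST1 (-0.17, adjusted p = 0.807) and INM1 (-0.49, adjusted p = 0.461) had the opposite sign and were not called. RCN1, a regulator of the phosphatase calcineurin, was lower at 18.1 ± 5.37 against 42.3 ± 13.5 (-1.23, adjusted p = 7.07e-05). PGM1, a phosphoglucomutase (-0.89, adjusted p = 0.000112), and PHO89, a sodium-phosphate importer (-2.04, adjusted p = 0.000258), were lower, PHO89 with drug-free cultures at 32.9 ± 34.9. The gradient slopes of ISC1 (0.10, adjusted p = 0.759 by limma) and PHO89 (-0.24, adjusted p = 0.793) kept their sign but were not called. TRK2 in LiCl cultures was not called against cycloheximide (0.56, adjusted p = 0.0469 by limma), myriocin (0.32, 0.188) or rapamycin (0.13, 0.596). RCN1 was called lower than under myriocin (-1.71, 1.89e-08), but not against cycloheximide (-0.67, 0.0886) or rapamycin (0.35, 0.257). In LiCl against LiCl-free mixtures RCN1 was called lower (-0.62, 0.00668) and TRK2 was not called (0.10, 0.645).

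By group, 2 of 10 other cation transporters were called, 1 of 14 phosphatase and kinase regulators, 1 of 8 PMA1 partners, 1 of 5 calcineurin genes and 2 of 5 lithium-sensitive phosphatases and phosphoglucomutases. Of the ENA1 regulators, 0 of 8 for glucose, 0 of 5 for pH and 0 of 8 for osmotic stress and nitrogen were called, nor any of 15 vacuolar proton pump genes. Along the LiCl gradient 3 of 78 were called (3.85%, beside 6.74%): TRK2 rose by 0.66 ± 0.21, RCN1 fell by 1.44 on the log2 scale (SE 0.23, adjusted p = 4.36e-05 by limma) and PGM1 fell by 0.90. PPZ2, the paralog of PPZ1, and CAB3, the partner of SIS2 and VHS3, differed by 0.02 and -0.01 between LiCl and drug-free cultures (adjusted p = 0.962 and 0.980).

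Likeness was measured as Pearson correlation of log2 values over 238 libraries, given as a description since libraries share depth, experiment and normalization. After YOR053W, VHS3 was nearest to NCE102 (0.737) and PIL1 (0.716), which encode proteins of the plasma membrane domains called eisosomes. PMA1 was nearest to MRH1 (0.716), PDR12 (0.715) and TPO3 (0.696), all plasma membrane proteins, and NHA1 to MDN1 (0.649), ACC1 (0.638) and PMA1 (0.605). TRK1 was nearest to RPB11 (0.567), ADO1 (0.555) and IRC22 (0.536), PPZ1 to HXT3 (0.545), LEU4 (0.529) and YNL058C (0.526), and SIS2 to MTD1 (0.525), ADE2 (0.517) and ADE12 (0.513). Outside the ENA array, ENA1 was nearest to GLE1 (0.463) and ENA5 to CMK2 (0.426), a calmodulin-dependent kinase. VHS3 correlated with its paralog SIS2 at 0.202, and outside the ENA array PMA1 and NHA1 were the closest pair among the 9.

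Estimated depth ran from 64843 to 2017611 reads with a median of 568842. Of the strain's marker genes, MFA1, MFA2, STE2 and BAR1 of mating type a were above the lowest value in every library with means of 221, 150, 122 and 23.1, while LEU2, MET17 and URA3, deleted in BY4741, were at the lowest value of the library in all 238. HIS3, of which BY4741 lacks only an internal part, had a mean of 16.6 and checks nothing, and of the alpha-cell genes MF(ALPHA)1 and STE3 averaged 0.285 and 1.26 and MF(ALPHA)2 9.78.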

How the data were processed

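RNA was taken from 238 yeast cultures, fragmented, selected for poly(A) and read at 3′ ends with molecular identifiers, per the labels' protocols. TopHat, UMI-tools, featureCounts and the R64 build are named in the submitters' processing notes without versions, and strand setting and multi-mapped reads are not described in the sources used here. The deposited signal values are counts that were normalized before deposit: every library has the same largest value, 17026.2, and totals of 595181 to 596851, which read from the values is quantile normalization. A change in total mRNA cannot be seen in them. Depth was estimated from the values at which low genes tie, and whole reads were not recoverable.

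Values were tested as log2(value + 1), with limma 3.58.1 in R 4.3.3, for 5015 features with a mean of at least 10, and p-values were adjusted by Benjamini-Hochberg over all of them. Group contrasts used all 238 libraries, with terms for experiment and set. Slopes used the experiment holding the gradient or pair, and are given at a relative growth of 0.5 for single drugs. Fold changes on this scale understate changes of low genes. The fits were tested on simulated data. Cultures were grouped by the drug and growth labels. Named were the 9 genes, the list genes called in LiCl against drug-free cultures or along the LiCl gradient, and the 3 nearest genes of each member; PPZ2 and CAB3 were added after their values were seen. The members and lists were chosen with earlier results of these data known. Sequences were read with Biopython 1.88 from the RefSeq R64 genome. Alternatives changed the pseudocount, filter, depth limit, library weights, terms, growth window, predictor and libraries included.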

Additional observations from a re-analysis of the deposited data

Results flagged for a closer look

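Of 45 sets of 1 gene in 1 group of 4 to 10 cultures, 6 had 1 culture far from the others by Dixon's criterion, which chance gives in about 1 of 20 sets. PPZ1 read 54.86 in LiCl replicate 10, an LR culture with 64843 reads. PMA1 read 423.9 in cycloheximide replicate 4, a CR culture with 87091 reads, and TRK1 read 91.2 in cycloheximide replicate 1, a CM culture. Drug-free replicate 4, an LM culture with 538674 reads, read 141.7 for ENA1, 142.9 for ENA2 and 85.08 for ENA5; these 3 share reads or neighbour each other, so they are not separate observations.

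The slope on LiCl dose share differed between partner drugs in the test of the difference. With cycloheximide minus with myriocin, it was 1.176 for ENA1, 1.157 for ENA2, 0.746 for TRK1 and -1.0332 for VHS3. With cycloheximide minus with rapamycin it was -1.0842 for SIS2, and with rapamycin minus with myriocin 0.9272 for PMA1.

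Some log2 differences against drug-free cultures pointed opposite ways in different experiments, with every culture on its side. These differences between experiments were not tested. CL, CR, LR and MR have 1 drug-free control culture each, and dense cultures were left out. For LiCl, ENA1 differed by 0.813 in CL and -1.194 in LM, ENA2 by 0.771 and -1.185, and ENA5 by 0.316 and -1.337. TRK1 under LiCl differed by 0.107 in CL, 0.695 in LM and -0.348 in LR. Under cycloheximide, PMA1 differed by 0.831 in CR and -0.167 in CL. Under myriocin, ENA1 differed by 0.293 in MR and -1.45 in LM, and ENA2 by 0.281 and -1.424. Under rapamycin, ENA1 differed by 0.196 in CR and -0.579 in LR, ENA2 by 0.054 and -0.584, and VHS3 by 0.027 in CR and -0.387 in MR. Whether the drug-free cultures account for these was not tested.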

How the results depend on the processing

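The labels give no replicate numbers that groups share. With both LR sets paired by LiCl dose, added after seeing the data, the difference of LiCl slopes between sets was called for 0 of the 9 and 0.299% of all genes, with ENA1 at -0.6358 (adjusted p = 0.49 by limma). Counts among the 9 genes, and which single values to recompute, were chosen after results were seen. For 73 member values, 540 combinations of a value and a setting were compared with the main fit, not counting those that leave out 1 culture. Of the 540, 499 kept their direction and their side of the threshold. Shares below are percentages of all genes tested that passed the threshold. A share not listed for a fitted setting stayed within 1.5 times that of the main fit, in number of genes. Counts of 3 or 4 of the 9 below hold both ENA1 and ENA2, which are 1 reading. With a pseudocount of 10 they were 1.5% for cycloheximide, 5.32% for LiCl, 4.37% for myriocin and 3.69% for rapamycin against drug-free cultures, 4.05%, 7.50% and 5.48% for LiCl against cycloheximide, myriocin and rapamycin, 1.40% for LiCl against LiCl-free mixtures, and 0.0798% for CL, 1.22% for LM, 0.0598% for LR, 1.04% for CM, 0.518% for CR and 0.0997% for MR mixtures against single drugs. In that setting the slopes gave 2.57% for cycloheximide, 7.76% for myriocin and 3.05% for rapamycin, the dose share with cycloheximide 10.9% and dense drug-free cultures 0.399%; of the 9 genes, 0 were called for myriocin against drug-free cultures, 1 for LiCl against rapamycin and 0 for the cycloheximide slope. With no filter on low values the shares were 2.38% for LR and 0.0893% for MR against single drugs, 7.16% for the rapamycin slope and 0% for dense cultures. Without shallow libraries they were 0% for CL, 0.0399% for LR and 0.140% for MR, and of the 9 genes 1 was called for cycloheximide, 2 for LiCl (VHS3 and PMA1) and 1 for rapamycin against drug-free cultures. With libraries weighted by quality they were 0.279% for CL, 0.678% for LR, 1.36% for CM and 0.419% for MR, and 1 of the 9 was called for LiCl against drug-free cultures. With final OD600 in place of set they were 0.160% for CL and 0.199% for MR, and 4 of the 9 were called for LiCl against myriocin. With no term for experiment or set they were 5.94% for cycloheximide against drug-free cultures (1 of the 9), 2.21% for LiCl against LiCl-free mixtures, and 11.9% for CL, 7.28% for LM, 4.17% for CM, 0.359% for CR and 1.04% for MR. With a growth window of 0.45 to 0.60, 1 of the 9 was called for LiCl and 0 for myriocin against drug-free cultures, 2 for LiCl against cycloheximide and 4 for LiCl against rapamycin. In the lower set alone the slopes gave 1.85% for cycloheximide (0 of the 9), 10.6% for LiCl (2 of the 9) and 2 of the 9 for rapamycin; in the higher set alone, 1.04% for LiCl, 3.71% for myriocin and 3 of the 9 for cycloheximide. At a relative growth of at least 0.35 the myriocin slope gave 7.84%. With final OD600 as a further term, the slopes gave 0 of the 9 for cycloheximide and 2 for rapamycin, and the dose share 11% with myriocin and 5.82% with rapamycin (1 of the 9). Per 10 mg/ml of LiCl in place of dose share, added after seeing the data, the shares were 7.16% with cycloheximide (3 of the 9) and 3.53% with myriocin. Without both LM drug-free cultures, also added afterwards, 0 of the 9 were called for myriocin. Leaving out 1 culture at a time gave 0 to 1 of the 9 for LiCl against drug-free cultures, 0.0199% to 0.359% for dense ones, an ENA5 LiCl slope of -0.1652 to 0.0192, and a VHS3 difference of 0.52 to 0.66 that passed the threshold in 9 of 18 cases. Signs turned, in values that were not called, for LiCl against drug-free cultures in ENA1 (-0.0264) and ENA2 (-0.0334) with no term for experiment or set and in ENA5 (0.0514) and TRK1 (-0.0285) without the LM drug-free cultures, for the LiCl slope in ENA5 (0.0158) without shallow libraries and ENA1 (-0.0308) in the higher set, and with final OD600 as a further term for the dose share in SIS2 with cycloheximide (-0.0786), PMA1 with myriocin (-0.1918) and PPZ1 with rapamycin (0.0699). The causes were not tested. ENA5 and PPZ1 were the most thinly read, with under 20 reads in 122 and 98 libraries.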
